A study of Mus musculus with 4 samples.

Results

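The genes described here are 10 genes of MHC class II antigen presentation and T cell costimulation, Cd74, H2-Aa, H2-Ab1, H2-Eb1, H2-DMa, H2-DMb1, Ciita, Cd86, Cd80 and Cd40. They were taken by gene name from the count tables of the series, where all 10 were found among 54532 genes, and all 10 passed the filter on low counts. RNA was sequenced from primary microglia of male CD1 pups, an outbred mouse stock, in 4 libraries. Of these, 2 came from cultures exposed to EGCG (epigallocatechin gallate, a flavan-3-ol of green tea) at 1 µM for 24 h and 2 from cultures given the DMSO vehicle, and libraries with the same replicate number were deposited together. All cultures were grown as mixed glia with GM-CSF, separated from the astrocyte layer by trypsin and treated in serum-free medium holding IL-34, TGFβ2 and GM-CSF, so that both groups describe cultured cells in the presence of GM-CSF. The labels do not say how many animals each culture came from. Total counts lay between 33805071 and 54970300 per library. The microglia markers Csf1r and Cx3cr1 were present in every library, at no less than 267 CPM, the counts of a gene relative to its library's TMM-adjusted total (edgeR), whereas Siglech had at most 3 counts in a library. Stromal markers stood apart in EGCG replicate 1, with a summed level of 1.40 CPM over 6 genes against 422 in the vehicle library of the same number and 160 and 176 in replicate 2. Where 4 values follow each other below, they are the vehicle and then the EGCG library of replicate 1, and the vehicle and then the EGCG library of replicate 2.

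Class II molecules carry peptides from the endocytic pathway to the cell surface, where CD4+ T cells read them. The α and β chains are made as a complex with the invariant chain (Cd74), which proteases cut down to a short fragment, and H2-DM then exchanges that fragment for peptide. Transcription of these genes is controlled by CIITA, a coactivator that binds no DNA itself and acts on a promoter module of X and Y boxes held by RFX, CREB and NF-Y proteins. In microglia, class II is low at rest and is induced mainly through interferon-γ. T cells also need costimulation, which CD80 and CD86 give through CD28, while CD40 receives the signal of CD40 ligand from the T cell.

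Of the 10 genes, 5 lay within 181.0 kb of the class II region on chromosome 17 (GRCm38), between H2-DMa (chr17:34135182-34139101) and H2-Eb1 (chr17:34305877-34316199). H2-DMb1 (chr17:34153072-34160230), H2-Ab1 (chr17:34263209-34269418) and H2-Aa (chr17:34282744-34287827, minus strand) lay between them. On chromosome 16 were Ciita (chr16:10480059-10528418), Cd86 (chr16:36603869-36666081, minus strand) and Cd80 (chr16:38455561-38496335), and on chromosome 2 was Cd40 (chr2:165055627-165072948).

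The promoters of the class II locus genes are shown because motifs of the X and Y box module, though not all of them in every gene, recur in genes whose counts moved differently. RefSeq promoters of GRCm38.p6, 250 bases before the start site, were given for 5 of the 10 genes (H2-Aa, H2-Eb1, H2-DMa, H2-DMb1 and Cd80) and for H2-DMb2, H2-Oa, H2-Ob and H2-Eb2 of the same region. The entries for Cd74, H2-Ab1, Ciita, Cd86 and Cd40 were missing. In the sequences below, 77 bases are printed 5′ to 3′ on the strand of the gene, and capitals mark TGATTGG (which holds ATTGG, the reverse complement of the Y box core CCAAT), the X1 box core AACNGATG and the X2 box TGACGTCA. TGATTGG was chosen after the sequences had been read, and the windows were placed on it, in the 7 genes of the region whose entry holds it, so its presence in them is no result.
H2-Aa (chr17:34287857-34287933, minus strand): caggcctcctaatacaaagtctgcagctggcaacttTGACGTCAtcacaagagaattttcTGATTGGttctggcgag
H2-Eb1 (chr17:34305746-34305822, plus strand): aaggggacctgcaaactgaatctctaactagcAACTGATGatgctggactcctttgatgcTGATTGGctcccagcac
H2-DMb1 (chr17:34153068-34153144, plus strand): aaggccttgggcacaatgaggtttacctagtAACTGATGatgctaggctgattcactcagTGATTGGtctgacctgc
H2-DMb2 (chr17:34145097-34145173, plus strand): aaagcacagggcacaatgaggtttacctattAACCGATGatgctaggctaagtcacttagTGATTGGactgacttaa
H2-Oa (chr17:34092274-34092350, plus strand): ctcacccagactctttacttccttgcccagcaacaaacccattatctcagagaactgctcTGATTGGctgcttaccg
H2-Ob (chr17:34238786-34238862, plus strand): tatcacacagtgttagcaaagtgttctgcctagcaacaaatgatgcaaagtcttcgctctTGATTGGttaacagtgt
H2-Eb2 (chr17:34325513-34325589, plus strand): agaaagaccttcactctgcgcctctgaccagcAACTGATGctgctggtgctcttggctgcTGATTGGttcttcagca

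On either strand, TGATTGG was found in 7.23% of 32851 promoters and CCAAT in 33.8%. AACNGATG, found in 1.98% of promoters, stood in 4 of the 7 windows, 21 bases before TGATTGG in H2-DMb1 and H2-DMb2 and 20 bases before it in H2-Eb1 and H2-Eb2. TGACGTCA, found in 1.55%, stood in the window of H2-Aa alone, and the shorter TGACG, which overlaps it, in 17.8% of promoters. The windows of H2-DMb1 and H2-DMb2 were identical at 64 of 77 bases, and those of H2-Eb1 and H2-Eb2 at 50 of 77. The 4 windows with AACNGATG are thus 2 pairs of like sequences and do not count as independent. The interferon response element core (GAAA, NN and GAAA in a row), found in 2.98% of promoters, was in none of these entries, and the Cd80 entry, which starts 3372 bases inside the gene of the files, held none of the motifs. The 2 entries for H2-DMa lay 12350 and 9664 bases before the start of the gene in the files, and of the motifs only CCAAT was in them, in the nearer one. The start site of the H2-DMb2 entry lay 1942 bases inside the gene of the files, so its printed window lay within the span of that gene.

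The first comparison asked whether EGCG altered these genes. None of the 10 passed an unadjusted p under 0.05 or an adjusted p under 0.1 with edgeR (quasi-likelihood, no other term than treatment), where 0.116% of the 13811 protein-coding genes tested passed the first threshold and 0 the second. The lowest unadjusted p of the 10 was 0.201, for Cd40 (edgeR, adjusted p = 0.9999 after Benjamini-Hochberg adjustment). The median log2 fold change over the 10 was 0.12, against 0.01 over all genes tested. Within the replicates, 5 of the 10 were higher under EGCG in both, 1 was lower in both and 4 differed in sign, and the differences ran from -0.28 to 0.56 on the log2 scale. The fit with treatment alone leaves the difference between replicates in its error. The SE of H2-Aa was 1.10 in that fit and 0.10 with the replicate number as a block, and that of H2-DMb1 was 1.33 and 0.10. It had little power for genes that differ between replicates, and the lack of a call does not show that EGCG left them unchanged.

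**Figure D1:**
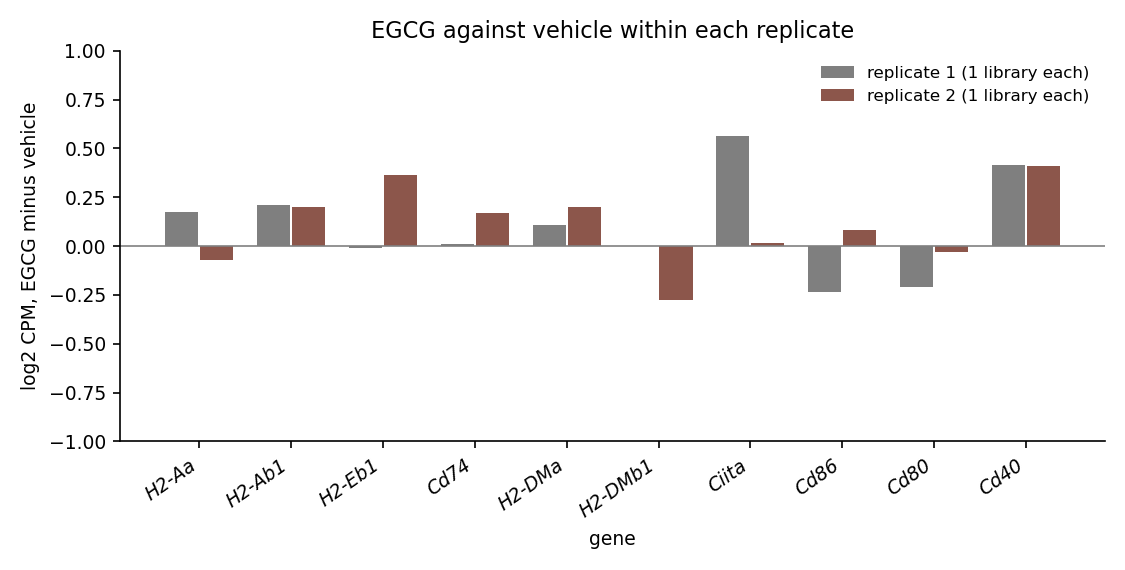
Log2 CPM of the EGCG library minus that of the vehicle library for each of the 10 genes, as 1 bar for replicate 1 and 1 for replicate 2, with no error since each bar compares a single library with another. Cd40 was 0.42 and 0.41 higher in the replicates, H2-DMb1 0.00 and -0.28, and Ciita 0.56 and 0.02.

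Cd40, the receptor for CD40 ligand, measured 3.47, 4.65, 3.96 and 5.27 CPM. Both EGCG libraries were above both vehicle libraries. Its log2 fold change was 0.42 ± 0.27 (SE), and with the replicate number as a block it was 0.42 ± 0.16 at an unadjusted p of 0.0422 in edgeR (adjusted p = 0.99), against 0.41 ± 0.37 at 0.27 with the block in DESeq2. These values rested on 114 to 291 counts per library.

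H2-DMa, a chain of the peptide exchanger H2-DM, was the other gene that passed the unadjusted threshold with the block, where its log2 fold change was 0.15 ± 0.06 (edgeR, unadjusted p = 0.0496, adjusted p = 0.99). Without the block it was 0.13 ± 0.79 (unadjusted p = 0.88 in edgeR), and with the block in DESeq2 the unadjusted p was 0.31. With the block 2 of 10 genes thus passed in edgeR, beside 3.21% of all genes, and 0 of 10 in DESeq2, beside 1.11%, and none of the 10 passed an adjusted p under 0.1 in either.

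The groups did not overlap for 2 of the 10 genes, Cd40 and Cd80, and they did not overlap for 11.9% of all genes tested. Cd80, a ligand of CD28 and CTLA4, measured 10.8 CPM and 10.2 CPM under vehicle and 9.33 and 10.01 under EGCG. Its log2 fold change was -0.12 ± 0.18 (edgeR, unadjusted p = 0.55). The median absolute log2 difference between EGCG and vehicle over the 10 genes was 0.19 in replicate 1 and 0.18 in replicate 2. Over all genes tested it was lower, at 0.116 in replicate 1 and 0.09996 in replicate 2. In replicate 1 the stromal markers of the EGCG library were near 0. The part of the stromal markers in these differences was not tested.

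The other comparison was between replicate 2 and replicate 1, with treatment in the fit, and it asked how these genes varied between cultures. Here 6 of the 10 genes were 2.996-fold to 6.99-fold lower in replicate 2, H2-Aa, H2-Ab1, H2-Eb1, H2-DMa, H2-DMb1 and Ciita, while Cd74 and Cd86 were higher. So 8 of 10 passed an adjusted p under 0.1 (edgeR, Benjamini-Hochberg), where the background was wide, since 53.5% of all genes tested passed, 25.7% lower and 27.7% higher in replicate 2. The median log2 fold change over the 10 was -1.82, against 0.01 over all genes, and 7.20% of all genes fell by as much as H2-DMa, the least changed of the 6. Each number is 1 pair of libraries. With treatment in the fit, the p-values measure how far the replicate difference disagreed between the vehicle and the EGCG libraries. They do not measure a spread between independent cultures, and culture, preparation and sequencing of a pair cannot be told apart. Nor can fewer cells of a type and less RNA per cell be told apart in bulk RNA.

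**Figure D2:**
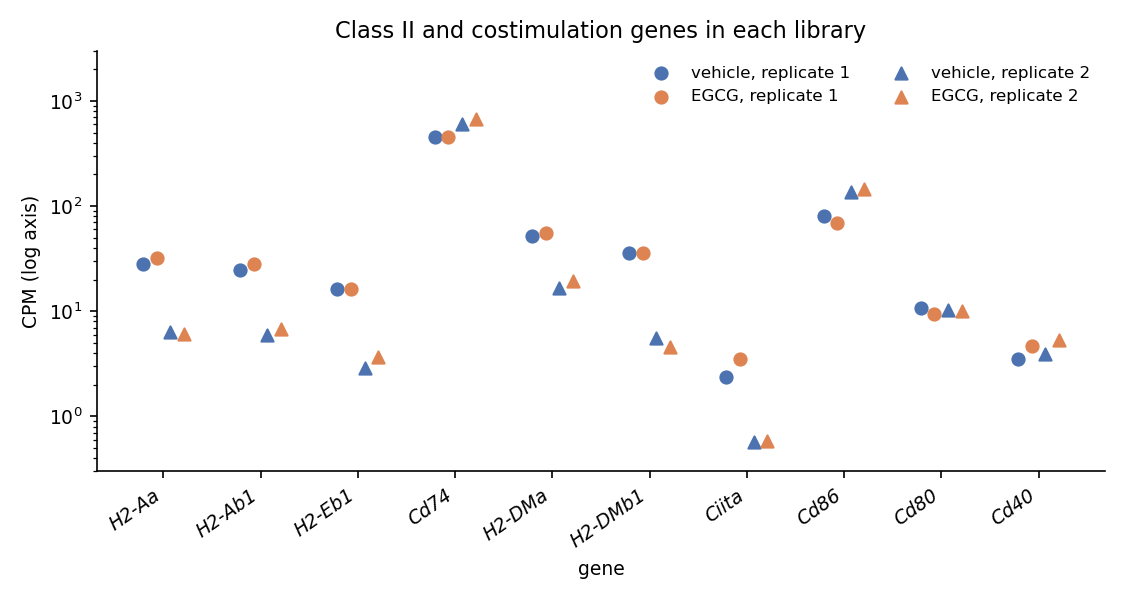
CPM of the 10 genes in each of the 4 libraries on a log axis, circles for replicate 1 and triangles for replicate 2, blue for vehicle and orange for EGCG. For H2-Aa, H2-Ab1, H2-Eb1, H2-DMa, H2-DMb1 and Ciita the circles sat above the triangles with a gap, for Cd74 and Cd86 below them, and for Cd80 and Cd40 the symbols mixed.

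Among the peptide-binding chains, H2-Aa, the α chain of I-A, measured 28.2, 31.9, 6.41 and 6.11 CPM. H2-Ab1, the β chain of I-A, measured 24.4, 28.2, 5.92 and 6.80 CPM. H2-Eb1, the β chain of I-E, measured 16.2, 16.1, 2.86 and 3.70 CPM. For all 3 the libraries of replicate 1 lay far above those of replicate 2 and the treatments overlapped. H2-Aa was 4.80-fold lower in replicate 2, with a log2 fold change of -2.26 ± 0.10 (edgeR, adjusted p = 0.00016). The values for H2-Ab1 were -2.05 ± 0.09 and for H2-Eb1 -2.30 ± 0.14. The ratio of H2-Aa to H2-Ab1 per base of gene length stayed between 0.785 and 1.01 in the 4 libraries. H2-Eb2 had 0 counts in every library, which allows up to 0.0544 to 0.0936 CPM, the level of 3 counts, and the pseudogene H2-Ea-ps had at most 1 count.

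For H2-DM, which loads peptide, H2-DMa measured 52.0, 56.0, 16.8 and 19.3 CPM. H2-DMb1, its β chain, measured 35.4, 35.4, 5.59 and 4.60 CPM. Both were lower in replicate 2, and H2-DMb1 had the lowest log2 fold change of the 10 genes, -2.80 ± 0.10 against -1.58 ± 0.06 for H2-DMa (edgeR, adjusted p = 0.00014 for each). H2-DMb2, a second gene for the β chain, measured 12.98, 11.3, 10.7 and 11.6 CPM, and its log2 fold change of -0.12 ± 0.12 did not pass (edgeR, adjusted p = 0.45). The ratio of H2-DMb1 to H2-DMb2 per base of gene length was 3.14 and 3.60 in replicate 1 and 0.599 and 0.458 in replicate 2. Transcripts of these genes aligned at 95.7% identity over 1081 bases, so the split of reads between them is uncertain. Their summed level was 48.4 and 46.8 CPM in replicate 1 and 16.3 and 16.2 in replicate 2, which was 2.93-fold lower.

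H2-Oa and H2-Ob, which form H2-O, an inhibitor of H2-DM, were not lower in replicate 2. H2-Oa measured 3.35, 3.46, 4.50 and 5.17 CPM and was higher in replicate 2 by 0.50 ± 0.16 on the log2 scale (edgeR, adjusted p = 0.058). H2-Ob measured 4.21, 3.65, 4.53 and 4.37 CPM, with a log2 fold change of 0.18 ± 0.16 (edgeR, adjusted p = 0.41). Of the printed promoter windows with TGATTGG, those of H2-Aa, H2-Eb1 and H2-DMb1 belonged to genes that fell in replicate 2, and those of H2-DMb2, H2-Oa and H2-Ob to genes that did not, while H2-Eb2 had no count. The windows differ in their other motifs, and the part of the promoter sequence in these differences was not tested.

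**Figure D3:**
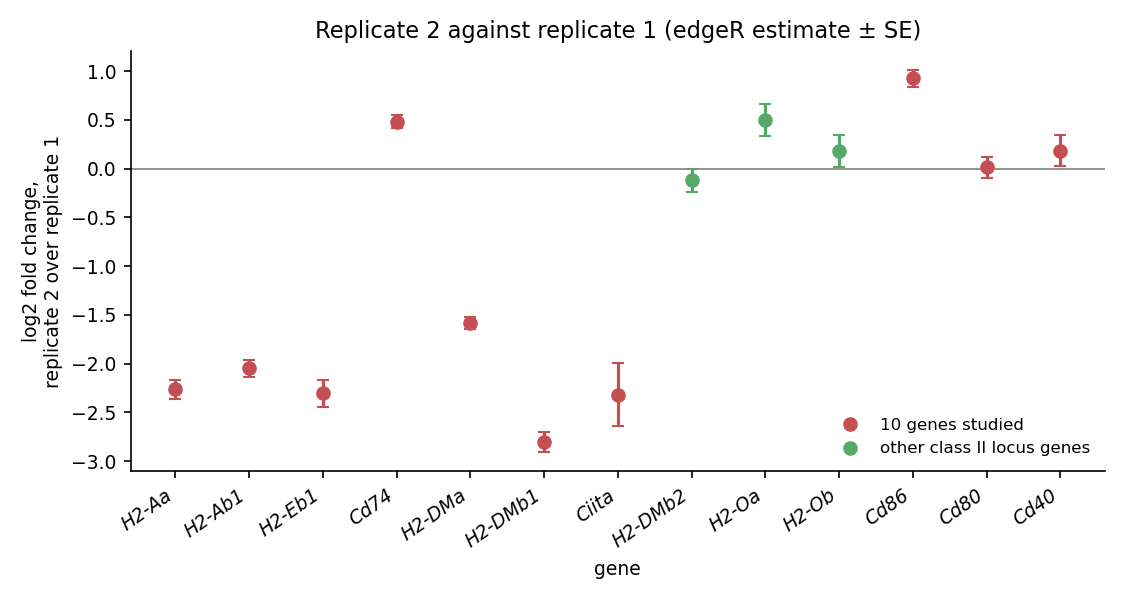
Log2 fold change of replicate 2 over replicate 1 from edgeR with treatment in the fit, points with ± 1 SE, for the 10 genes (red) and 3 other genes of the class II region (green). The 6 lowest points, from -1.58 to -2.80, were H2-Aa, H2-Ab1, H2-Eb1, H2-DMa, H2-DMb1 and Ciita, and the other points lay between -0.12 and 0.93.

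Ciita, the class II coactivator, was the least abundant of the 10, at 2.35, 3.50, 0.573 and 0.580 CPM, or 77, 112, 21 and 32 counts. The libraries of replicate 1 were above those of replicate 2. The log2 fold change of -2.32 ± 0.32 (edgeR, adjusted p = 0.0038) had the widest error of the 10. Ciita overlaps Dexi on the opposite strand, which had 259 to 431 counts. The quantification was described as strand-specific, but the strand setting of the counting is not given in the sources used here, and without it reads of the overlap cannot be told apart. Dexi measured 7.89, 8.08, 8.73 and 7.81 CPM, and its replicates overlapped.

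Cd74, the invariant chain, was by far the most abundant and did not follow the chains it accompanies. It measured 452, 455, 598 and 672 CPM, so both libraries of replicate 2 were above those of replicate 1. Its log2 fold change was 0.48 ± 0.06 (edgeR, adjusted p = 0.0033). Per base of gene length, Cd74 exceeded H2-Ab1 by 21.5 and 18.7 times in replicate 1 and by 117 and 115 times in replicate 2. The direction of Cd74, like that of the other 7 genes called, was kept under every normalization tried.

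Cd86, the other ligand of CD28 and CTLA4, measured 80.6, 68.4, 137 and 145 CPM. It was 1.90-fold higher in replicate 2 (log2 fold change 0.93 ± 0.09, edgeR, adjusted p = 0.0011). Cd80 and Cd40 showed no such difference, at 0.01 ± 0.11 and 0.18 ± 0.16 (edgeR, adjusted p = 0.94 and 0.38). The ratio of Cd86 to Cd80 per base of gene length was 7.55 and 7.42 in replicate 1 and 13.6 and 14.7 in replicate 2. Stretches of 204 to 322 bases of Cd40 aligned to transcripts of 6 other genes at 90.04% to 90.6% identity.

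In order of CPM per kb of gene length in replicate 1, the genes were Cd74 (321 and 323 in the vehicle and EGCG libraries), H2-DMa (31.7 and 34.1), H2-DMb1 (23.8 and 23.9), Cd86 (22.01 and 18.7), H2-Ab1 (14.9 and 17.2), H2-Aa (15.1 and 17.02), H2-Eb1 (13.7 and 13.6), Cd80 (2.91 and 2.52), Cd40 (1.02 and 1.37) and Ciita (0.246 and 0.367). H2-Ab1 and H2-Aa overlapped in this order. In replicate 2, Cd86 at 37.5 and 39.7 CPM per kb was above H2-DMa at 10.2 and 11.8. The next 4, H2-Ab1 (3.62 and 4.15), H2-DMb1 (3.77 and 3.10), H2-Aa (3.42 and 3.26) and H2-Eb1 (2.42 and 3.12), overlapped from neighbour to neighbour.

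The genes whose pattern over the 4 libraries was most like the median of Cd74 and the 5 H2 genes were taken from 11592 tested genes with at least 100 counts, by the root mean square difference of centred log2 CPM. They were Vwf (0.03), Rtkn (0.05), Pla2g7 (0.05), Hey1 (0.05) and Wdr66 (0.06). Vwf, which encodes von Willebrand factor, measured 92.2 and 102 CPM in replicate 1 and 22.7 and 24.3 in replicate 2. By the same measure H2-Ab1 stood at 0.03, H2-Aa at 0.12, H2-Eb1 at 0.14, H2-DMa at 0.25 and H2-DMb1 at 0.39. Cd74 stood at 1.28, so the median profile was nearer to the H2 genes than to Cd74. Of the 5 H2 genes, only H2-Ab1 lay within the range of the 5 genes named above.

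Other genes of the pathway were read from 9 lists naming 79 genes, of which 75 were found and 65 tested. Under EGCG, 0 of the 65 passed an unadjusted p under 0.05 in edgeR without the block, 5 with it, beside 3.21% of all genes, and 3 with the block in DESeq2, beside 1.11%, and none of the lists' genes passed an adjusted p under 0.1 with the block in edgeR. The list of other costimulatory and coinhibitory ligands had 14 tested genes. Of these, 4 were higher under EGCG at an unadjusted p under 0.05 with the block in edgeR, Icosl, Cd48, Lgals9 and Icam1. In DESeq2 with the block only Icam1 passed (unadjusted p = 0.047), and none of the 14 passed in edgeR without the block. Icam1, the adhesion ligand of LFA-1, measured 135 and 198 CPM under vehicle and 161 and 212 under EGCG in replicates 1 and 2, a log2 fold change of 0.18 ± 0.06 (edgeR with the block, unadjusted p = 0.028, adjusted p = 0.99). Socs3, an inhibitor of cytokine receptor signalling, measured 25.8 and 85.7 CPM under vehicle and 17.4 and 72.9 under EGCG, a log2 fold change of -0.39 ± 0.10 (edgeR with the block, unadjusted p = 0.0087, adjusted p = 0.99). Icosl, Cd48 and Socs3 were picked from their values.

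Between replicates, none of the 9 tested transcription factor genes for class II promoters was lower in replicate 2 at an adjusted p under 0.1 in edgeR, and 4 were higher. Over all genes tested, 25.7% were lower and 27.7% higher at that threshold, and the list counts below stand beside these shares. Nfya and Nfyc, subunits of NF-Y, measured 127 to 133 CPM and 22.3 to 23.8 CPM over the 4 libraries and did not pass. Creb1, a factor of the X2 box, rose by 0.52 ± 0.06 on the log2 scale and Crem by 0.75 ± 0.16 (edgeR, adjusted p = 0.0022 and 0.015). Rfx5, the RFX subunit that contacts the X box, measured 15.9 and 14.2 CPM in replicate 1 and 22.04 and 21.99 in replicate 2, and was picked from its values.

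On the interferon-γ route to Ciita, Ifng had 0 counts in every library. Of the 11 tested genes 4 were higher and 2 lower in replicate 2, Irf8 among the latter. Irf8 measured 315, 313, 246 and 255 CPM (log2 fold change -0.33 ± 0.05, edgeR, adjusted p = 0.0049). Ifngr2, a receptor chain, was higher by 0.60 ± 0.05 and Ifngr1, the chain that binds interferon-γ, by 1.93 ± 0.10 (edgeR, adjusted p = 0.00071 and 0.00020). Spi1 (PU.1) and Jak1 did not pass. Ifngr1 was picked from its values.

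Among the invariant chain proteases and other genes of antigen processing, 4 of 9 were lower in replicate 2 and 1 higher, with a median log2 fold change of -0.23. Ctss, the cathepsin that makes the last cuts of the invariant chain, measured 7470, 7929, 4410 and 4412 CPM, a log2 fold change of -0.80 ± 0.10 (edgeR, adjusted p = 0.0028). Ctsl fell by 1.33 on the log2 scale and Ctsd by 0.65 (edgeR, adjusted p = 0.00062 and 0.0064), and Ctsb did not pass. Ifi30, a thiol reductase of the endocytic pathway, was not tested since the files class it outside protein-coding genes, and it measured 184, 202, 162 and 175 CPM.

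The list for class II and CD86 surface turnover named March1 (Marchf1) and March8 (Marchf8), which were not found under these names. Its tested genes were Cd83, Il10, Il10ra and Il10rb. All 4 were higher in replicate 2 at an adjusted p under 0.1, beside 27.7% of all genes. Their median log2 fold change was 1.62. Cd83, which protects class II and CD86 from ubiquitination, measured 27.4, 36.5, 116 and 121 CPM (1.91 ± 0.10, edgeR, adjusted p = 0.00021), and Il10ra and Il10rb rose by 1.32 and 0.65. Il10 itself had 0, 3, 9 and 21 counts and passed narrowly (edgeR, adjusted p = 0.097), and its fitted fold change rests on the prior count. Of the costimulatory and coinhibitory ligands, 6 of 14 were higher in replicate 2 and 3 lower. Vsir, the checkpoint ligand VISTA, rose by 0.55 ± 0.08, whereas Cd274 (PD-L1) fell by 0.22 on the log2 scale with an SE of 0.05 (edgeR, adjusted p = 0.0035 and 0.016).

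Of 8 tested genes of CD40 signalling, 5 were higher and 2 lower in replicate 2, although Cd40 itself did not pass. Nfkb2 and Relb, the pair of the non-canonical NF-κB pathway, rose by 1.16 ± 0.05 and 1.11 ± 0.06 (edgeR, adjusted p = 0.00016 and 0.00027), and Traf2 by 0.62. Cd40lg had 0 counts in every library. Of the GM-CSF genes 2 were higher and 2 lower of 6 tested, and Csf2ra, the receptor's α chain, measured 568 and 542 CPM in replicate 1 and 293 and 306 in replicate 2 (-0.89 ± 0.06, edgeR, adjusted p = 0.00041). Cd28, a receptor of CD80 and CD86, measured 34.2, 37.9, 27.1 and 26.9 CPM, and Ctla4 and Csf2 had 0 counts.

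**Figure D4:**
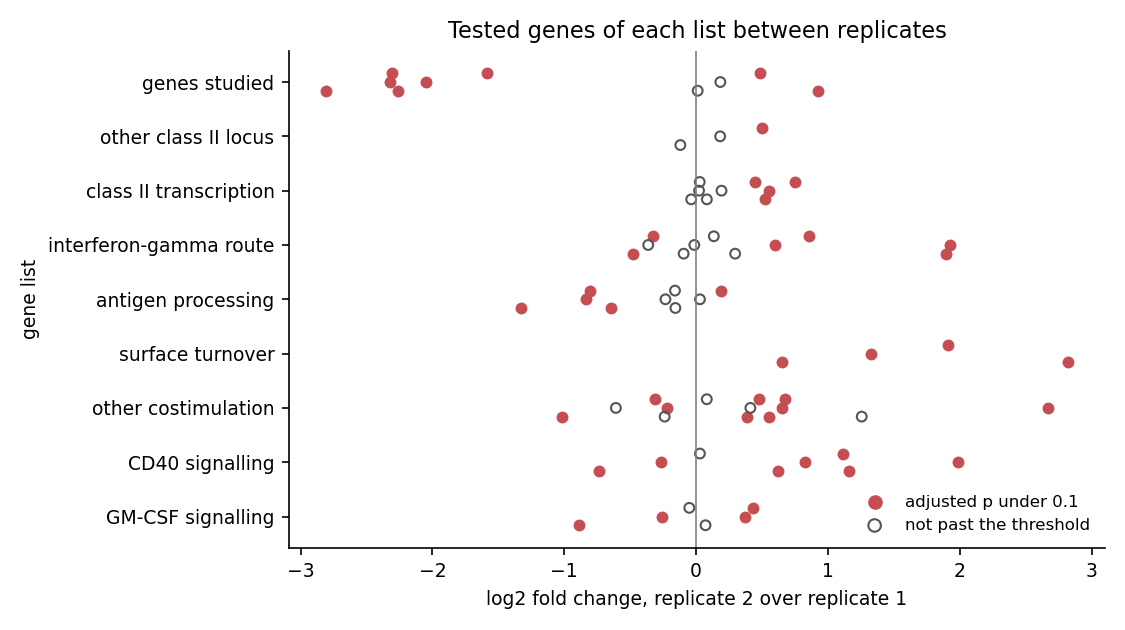
Log2 fold change of replicate 2 over replicate 1 (edgeR, treatment in the fit) for the tested genes of each list, 1 point a gene, filled red where the adjusted p was under 0.1 and open where it was not. The 10 genes studied (top) spread from -2.80 to 0.93, and the 4 genes of surface turnover lay between 0.65 and 2.82.

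Markers of other cells that carry class II were read beside these values. The B cell marker Ms4a1 had 0 counts in every library, and Cd22, which made up nearly all of the B cell list's summed level of 64.2 to 74.8 CPM, was 64.1, 72.3, 72.5 and 74.3 CPM. Cd79b was the 1 gene of this list called between replicates, at 0, 2, 20 and 28 counts and so higher in replicate 2 (edgeR, adjusted p = 0.032). The dendritic cell markers Flt3 and Cd209a had 0 counts, whereas Itgax, which microglia in culture also express, measured 701, 702, 569 and 621 CPM. The summed level of the 10 dendritic cell markers was 715 and 719 CPM in replicate 1 and 580 and 632 in replicate 2, and 3 of 7 tested were lower in replicate 2. Cd3e, Cd3d, Cd3g, Cd8a, Nkg7 and Ncr1 of the T and NK cell list had at most 1 count in a library, and Cd4 measured 0.396 to 0.961 CPM. The plasmacytoid dendritic cell list summed to 637, 670, 519 and 536 CPM. Of its 3 tested genes, Bst2 (-0.64 ± 0.05) and Irf7 (-0.34 ± 0.05) were lower in replicate 2 (edgeR, adjusted p = 0.00065 and 0.0058). Tcf4 was higher (0.65 ± 0.06, edgeR, adjusted p = 0.00082), and Ly6d had 0 counts. Activated microglia or other cells also express Bst2, Irf7 and Tcf4. The endothelial list summed to 7.62, 5.74, 19.7 and 16.5 CPM, with Kdr and Cdh5 lower in replicate 2 and Pecam1 higher, at 0.0610, 0.0936, 15.8 and 13.4 CPM. Summed levels were 14.2 to 22.5 CPM for astrocytes and 80.0 to 86.4 for the oligodendrocyte lineage.

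The tested genes of the monocyte and neutrophil list were lower in replicate 2, by unlike amounts. Ly6c2 was 64.5-fold lower, S100a8 3.79-fold and Ccr2 1.66-fold (edgeR, treatment in the fit). The summed level of this list was 54.8, 60.6, 6.36 and 6.07 CPM, and all 3 tested of its 7 genes were lower in replicate 2, Ly6c2, S100a8 and Ccr2. Over all genes tested, 25.7% were lower. Ly6c2 measured 40.2, 43.4, 1.06 and 0.344 CPM, and S100a8 11.2, 12.8, 2.86 and 3.46 CPM. Of the defining genes, S100a9, Ly6g and Elane had 0 counts in every library and Mpo at most 1, while Ccr2 measured 3.41, 4.40, 2.43 and 2.25 CPM.

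Microglia and border macrophage markers also differed between the replicates. Of 11 tested microglia markers 7 were higher in replicate 2 and 4 lower, beside 27.7% and 25.7% of all genes. Sall1 was at 12.7, 10.9, 45.1 and 40.0 CPM and Fcrls at 94.4, 99.7, 732 and 629 CPM, and the summed level of the 12 genes was 4418 to 5955 CPM. The border macrophage list summed to 885, 1063, 993 and 949 CPM, and 2 of its 6 tested genes were higher and 2 lower. Higher in replicate 2 were Ms4a7, at 218, 297, 496 and 491 CPM, and Mrc1, at 214, 245, 354 and 327 CPM. Lower were Pf4, at 451, 520, 142 and 130 CPM, and F13a1, at 1.37, 0.811, 0.273 and 0.127 CPM. The part of these cell markers in the class II differences was not tested.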

How the data were processed

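The authors deposited unnormalized counts (whole reads per gene) in 1 table per replicate number with a vehicle and an EGCG column, together with the gene length in bases and the gene class. Per the labels and the study's methods, libraries were directional and poly-A selected, quantification was strand-specific, reads were filtered for adapters and low quality, and clean reads were aligned with HISAT2 to GRCm38.p6. The counting program, the annotation release, the strand setting of the counting and the handling of reads matching several genes are not given in the sources used here. CD1 is outbred and class II alleles are polymorphic, so reads that differ from the reference may have been lost; alleles were not examined.

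Tables were joined on the gene identifier (54532 genes, 22046 protein-coding); 697 and 329 loci of 1 table each were left out. Counts were tested in R 4.3.3 with edgeR 4.0.16 (TMM, quasi-likelihood F test, two-sided, Benjamini-Hochberg over the 13811 protein-coding genes whose 4 libraries together held 10 counts or more), and DESeq2 1.42.0 was an alternative. Thresholds were an unadjusted p under 0.05 and an adjusted p under 0.1, and a prior count of 2 entered the log2 values of single libraries. SE is the log2 fold change divided by the root of F. With 2 libraries against 2, the smallest two-sided p of an exact permutation test is 0.333, and the p-values therefore depend on the models. Floors of 3 counts cover counting error only. The fits were tested on simulated data with known changes.

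The replicate number pairs libraries deposited in 1 table, as the study's submission sheet and labels give them, and deviations of same-numbered libraries from their group means correlated across genes at r = 0.64 (genes are not independent; 2 pairs only). Members, lists and motifs were chosen with earlier results of these data known. Named genes are the 10 members, up to 4 genes of highest mean CPM per list, the 5 most alike in pattern and markers, and every other gene named, such as Ifi30, Dexi and list genes at 0 counts, was picked from its values. Some genes that this rule names are not reported here. Near-identical transcripts were found with BLAST 2.17.0 (GENCODE M21, at least 90% identity over 200 bases). Alternatives covered normalization, filter, gene class, test, dispersion, the replicate block, the treatment term and leaving out each library.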

Additional observations from a re-analysis of the deposited data

How the results depend on the processing

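Between replicates, the same 8 of the 10 genes passed an adjusted p under 0.1 with the same direction under each alternative that gives a test, and leaving out a library leaves no residual degrees of freedom there, so those values have no test. For EGCG against vehicle, none of the 10 passed an unadjusted p under 0.05 under any alternative except the replicate block in edgeR, which gave 2 (H2-DMa and Cd40) and changed no other call among the 10. The median log2 fold change over the 10 genes ran from -0.998 without EGCG replicate 1 to 1.37 without Vehicle replicate 1, since the arm left with 1 library then holds a single replicate number; that library was assumed to vary like the others. The number of genes at an unadjusted p under 0.05, 16 as reported, was 3 with 10 counts required in every library, 6 with filterByExpr, 35 with all gene classes, 78 with the likelihood ratio test, 38 with the other dispersion setting of glmQLFit, 444 with the replicate block in edgeR, 153 with the block in DESeq2, and, when a library was left out, from 8 without EGCG replicate 1 over 57 without Vehicle replicate 2 to 131 without EGCG replicate 2; apart from the filters and the number of libraries, the cause was not tested. At an adjusted p under 0.1 the counts were 0 as reported, 1 in DESeq2, and 1 and 7 with the block in edgeR and DESeq2, none of them among the 10 genes. Depth limits Ciita most, at 21 to 112 counts per library.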
